A study of Saccharomyces cerevisiae with 12 samples.

Results

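The 10 genes described here encode the translation factors eIF2 and eIF2B of budding yeast, the kinase Gcn2 and the transcription factor Gcn4. They were taken by their systematic names from a table of ribosome footprint counts with 6697 genes: SUI2 (YJR007W), SUI3 (YPL237W) and GCD11 (YER025W) for eIF2, GCN3 (YKR026C), GCD7 (YLR291C), GCD1 (YOR260W), GCD2 (YGR083C) and GCD6 (YDR211W) for eIF2B, and GCN2 (YDR283C) and GCN4 (YEL009C). All 10 passed the filter on low counts, which 5719 genes passed. Footprints are the short RNA fragments that translating ribosomes shield from nuclease, so a gene's count reflects both its mRNA and how many ribosomes sit on it. The cells were W303 Ade+ yeast in liquid culture, and in both strains Ded1, an RNA helicase of translation initiation, carried the fluorescent protein mCherry. The genotype was Ded1-mCherry in WT and Ded1_IDRm-mCherry in the second strain, called IDRm as in the labels, which do not spell the name out. Cultures of each strain were held at 30, 40 or 42 °C for 10 min, so that there were 6 groups with 2 libraries in each. The labels used here name neither a promoter nor the number of clones behind a strain.

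eIF2 brings the initiator methionyl-tRNA to the small ribosomal subunit in a complex with GTP, and it leaves the ribosome bound to GDP. eIF2B is the exchange factor that returns it to the GTP form. Gcn2, activated by uncharged tRNA, phosphorylates the α subunit of eIF2, and phosphorylated eIF2 inhibits eIF2B, which lowers initiation on most mRNAs. The GCN4 mRNA is the textbook exception: short upstream open reading frames (uORFs) in its leader keep ribosomes from the main frame while active eIF2 is plentiful and let more of them through when it is scarce. Gcn4 then activates genes of amino acid biosynthesis.

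The regulatory sequences of this circuit are shown first because the counts below are read against them. All were read from the S288C reference genome (RefSeq, build R64) and not from the W303 strains. The GCN4 gene lies at chrV:138918-139763 on the minus strand, in 1 coding exon. In the 600 bases before its start codon there were 4 ATG codons, each with an in-frame stop before the main frame. They open the 4 uORFs, and the capitals mark each frame from its ATG to its stop.
uORF1, 361 bases before the GCN4 start codon, chrV:140107-140130: tgaaaaATGGCTTGCTAAaccgat
uORF2, 293 bases before it, chrV:140042-140062: agaattATGTGTTAAatttat
uORF3, 176 bases before it, chrV:139922-139945: gctatcATGTACCCGTAGaatttt
uORF4, 151 bases before it, chrV:139897-139920: ttcaagATGTTTCCGTAAcggtta
start codon of GCN4, in capitals, chrV:139755-139775: aatacaaataaaATGtccgaa
The frames of uORF1, uORF3 and uORF4 hold 3 codons before the stop and that of uORF2 holds 2. The target of Gcn2 is a serine of Sui2, written in capitals below. It is codon 52 when the initiator methionine is counted as codon 1. The stretch printed around it lies on the plus strand at chrX:451146-451205.
SUI2 around the phosphorylated serine codon: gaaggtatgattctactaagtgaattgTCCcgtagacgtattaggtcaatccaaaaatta
How footprints were assigned to genes is not given in the sources used here. Whether footprints on the GCN4 uORFs entered its count is therefore unknown, and a change of the GCN4 count was not split between leader and main frame.

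The 12 libraries held between 3429950 and 7851819 counts. Levels are CPM, counts scaled to a library of 1e6 after normalisation, given per library, and densities are CPM per kb of coding sequence, which allow genes of different length to be compared. Changes are given on the log2 scale with an approximate standard error, from edgeR's quasi-likelihood test, with Benjamini-Hochberg adjustment over all 5719 genes, and a gene was said to have risen or fallen at an adjusted p of at most 0.05. All levels are relative to the library: neither the total amount of translation nor mRNA was measured, and the number of cells and the RNA per cell cannot be told apart. The libraries at 30 °C differed within both strains in heat-induced genes, with replicate 2 the higher one. HSP26, a small heat shock protein, had 27.72 CPM in WT replicate 1 and 114.9 CPM in replicate 2, against 54.99 and 79.22 CPM in IDRm. SSA4 had 157.6 and 483.8 CPM in WT and 203.9 and 351.3 CPM in IDRm. HSP104 had 705.3 and 1069 CPM in WT and 903.2 and 1166 CPM in IDRm. At 40 and 42 °C no library had under 2181 CPM of HSP26. Calls of the 10 genes that were lost without any 1 of the 30 °C libraries are named as such. DED1 had 1052 to 1457 CPM in all libraries, and these counts do not show which allele a library carried. The IDRm libraries at 40 °C were the lowest, with 1052 and 1098 CPM, against 1320 and 1314 CPM in WT at 40 °C. None of the 10 genes overlapped another annotated gene or shared a 28-base stretch of coding sequence with one.

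In both strains eIF2 and eIF2B lost a large part of their share of footprints at 40 °C while GCN4 gained, and at 42 °C most of this was smaller. In WT at 40 °C against 30 °C, 9 of the 10 genes fell and GCN4 rose. Of all genes tested, 75.5% changed, 39.5% lower and 36.1% higher, and the 9 genes that fell are to be read against that. The median change of the 10 genes was −1.01 and that of all genes −0.02. In WT at 42 °C against 30 °C, 8 of the 10 fell, with 63.6% of all genes changed and 33.6% lower, and their median was −0.28 against −0.03. In IDRm at 40 °C, 8 fell and 1 rose, with 77.3% of all genes changed, 39.9% lower and 37.4% higher, and the median was −1.29 against 0.01. In IDRm at 42 °C, 7 fell and 1 rose, with 73.5% of all genes changed, 36.7% lower and 36.8% higher, and the median was −0.45 against 0.02. The 40 °C and 42 °C comparisons of a strain share its 30 °C libraries.

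From 40 to 42 °C the directions turned. In WT 8 of the 10 genes were higher at 42 °C than at 40 °C and GCN4 was lower, with 59.2% of all genes changed, 29.8% higher and 29.4% lower. In IDRm 7 were higher and 2 lower, GCN4 and GCD7, with 54.4% of all genes changed, 27.3% higher and 27% lower. With library size as the only scaling the median gene itself moved by −0.26 at 40 °C in WT, by 0.3 from 40 to 42 °C in WT, and by −0.22 and 0.22 in IDRm. All genes then split into 1620 higher and 2739 lower in WT at 40 °C, in place of 2062 and 2257. For 42 against 40 °C the split was 2620 higher and 921 lower in WT, in place of 1703 and 1684, and 2228 and 974 in IDRm, in place of 1564 and 1546. The 10 genes at 42 °C against 30 °C split into 1 higher and 5 lower in WT, and into 0 and 7 in IDRm, under that scaling. All genes split there into 1897 higher and 1686 lower in WT, and into 2054 and 2122 in IDRm.

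**Figure D1:**
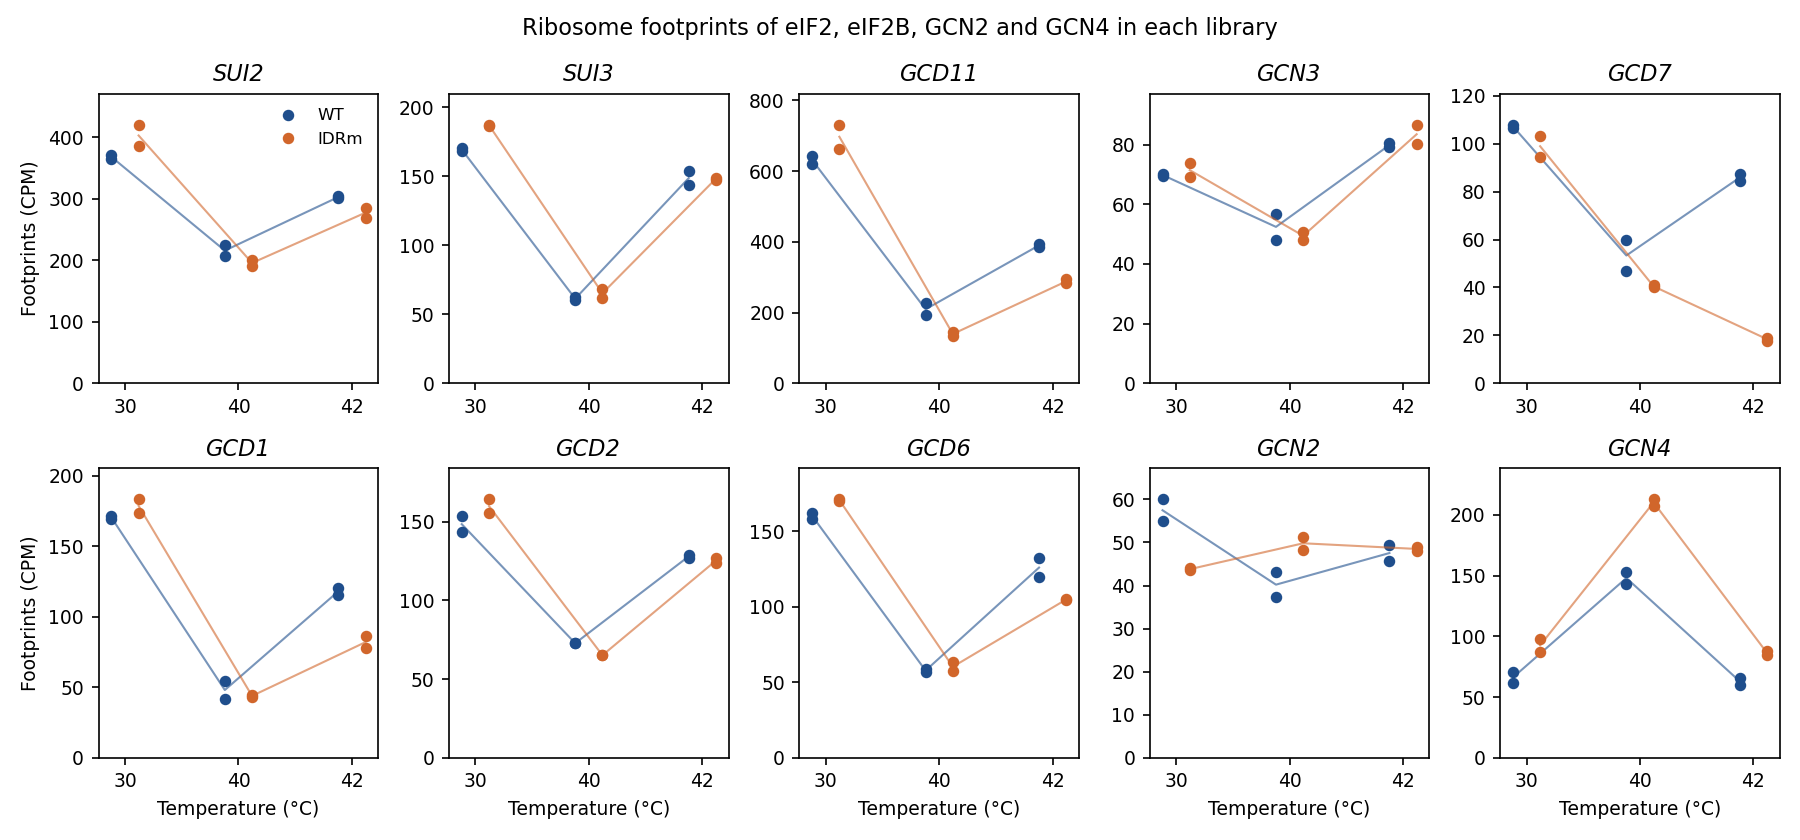
Footprint level of each of the 10 genes in every library, in CPM on linear axes from 0, at 30, 40 and 42 °C (equal spacing, not to scale) for WT and IDRm. Points are libraries and lines join the means of 2. The eIF2 and eIF2B genes dip at 40 °C and GCN4 peaks there, and GCD7 in IDRm falls further at 42 °C, to 19.01 and 17.78 CPM.

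eIF2 was read more densely than eIF2B in every group. GCD11, at chrV:205251-206834 on the plus strand, encodes the γ subunit, which binds GTP and the initiator tRNA. It had 641.5 and 620.9 CPM in WT at 30 °C, 192.9 and 225.7 CPM at 40 °C and 385.3 and 394.6 CPM at 42 °C. The IDRm values, in the same order of temperatures, were 731.6 and 662.5 CPM, 135 and 143.6 CPM, and 293.4 and 283 CPM. The IDRm libraries were the higher ones at 30 °C and the lower ones at both heated temperatures, with no overlap between the strains. GCD11 fell at 40 °C in WT (−1.59 ± 0.08, adjusted p = 1.65e-18) and in IDRm (−2.32 ± 0.08, adjusted p = 1.15e-22), which is 3.01-fold and 5-fold lower. The WT value was −1.56 without replicate 1 at 30 °C and −1.62 without replicate 2. The fall was larger in IDRm by −0.74 ± 0.11 at 40 °C (test of the strain difference, adjusted p = 1.3e-05) and by −0.58 ± 0.11 at 42 °C (adjusted p = 7.57e-05). Between the strains GCD11 was lower in IDRm by −0.59 ± 0.09 at 40 °C (adjusted p = 1.71e-06) and by −0.44 ± 0.08 at 42 °C (adjusted p = 2.18e-05). At 30 °C the difference was 0.14 ± 0.07 and did not pass (adjusted p = 0.194).

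SUI2, at chrX:451020-451934 on the plus strand, encodes the α subunit with the serine shown above. It had 371.6 and 364.5 CPM in WT at 30 °C, 206.3 and 225.1 CPM at 40 °C and 300.4 and 305.1 CPM at 42 °C. In IDRm the values were 420.6 and 385 CPM, 199.8 and 191.3 CPM, and 285.6 and 269.1 CPM. The 3 temperatures did not overlap within either strain. Its fall at 40 °C was smaller than that of the other 2 subunits in size, at −0.77 ± 0.08 in WT and −1.04 ± 0.08 in IDRm. At 42 °C SUI2 fell by 0.28 ± 0.07 in WT (adjusted p = 0.00116) and by 0.54 ± 0.07 in IDRm (adjusted p = 1.07e-07). The difference between those falls, −0.25 ± 0.10, did not pass (adjusted p = 0.0666), but it passed with DESeq2's size factors (adjusted p = 0.0237), with library size alone (adjusted p = 0.0138) and without IDRm replicate 2 at 30 °C (adjusted p = 0.0458).

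SUI3, at chrXVI:100496-101353 on the plus strand, encodes the β subunit, which takes part in start codon recognition and in binding eIF5 and eIF2B. It went from 170.5 and 167.9 CPM in WT at 30 °C to 60.14 and 62.34 CPM at 40 °C, and had 153.6 and 143.4 CPM at 42 °C. In IDRm it had 186.4 and 187.3 CPM, 61.86 and 68.42 CPM, and 147.5 and 148.7 CPM at the 3 temperatures. The strains overlapped at 40 and 42 °C and not at 30 °C, where the difference of 0.14 ± 0.08 did not pass (adjusted p = 0.244). SUI3 fell at 40 °C by 1.47 ± 0.09 in WT and by 1.52 ± 0.09 in IDRm, and the strain difference in that change was −0.06 ± 0.13 (adjusted p = 0.854). At 42 °C its fall in WT, −0.19 ± 0.08 (adjusted p = 0.0456), was lost without WT replicate 1 at 30 °C (adjusted p = 0.133), without WT replicate 2 at 42 °C (adjusted p = 0.187), and without replicate 2 of IDRm, whether that at 40 °C (adjusted p = 0.0514) or that at 42 °C (adjusted p = 0.0516). That WT call was also lost in DESeq2 (adjusted p = 0.151) and with DESeq2's size factors (adjusted p = 0.0561). Library size alone (adjusted p = 0.193) and a fit of those groups alone (adjusted p = 0.22) ended it too. It passed in 10 of 19 other settings without a fold minimum. In IDRm SUI3 fell by 0.34 ± 0.08 at 42 °C (adjusted p = 0.000508).

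The unequal falls changed the balance of footprints among the 3 eIF2 subunits. In WT at 30 °C, SUI2 and GCD11 had densities of 402.2 ± 5.45 and 398.5 ± 9.2 CPM per kb (mean ± SD, n = 2), which overlapped, and SUI3 had 197.2 ± 2.09 CPM per kb. Of the summed density, SUI2 held 40.3%, GCD11 40% and SUI3 19.8% at 30 °C. At 40 °C SUI2 held 53.6% in WT and 56.6% in IDRm, and GCD11 30% in WT and 23.3% in IDRm. The 2 libraries of a group differed by at most 3 percentage points in any of these shares, so the shift of SUI2 and GCD11 at 40 °C is larger than the spread between replicates. The mean density of the 3 subunits at 40 °C was 44% of its 30 °C value in WT and 34.4% in IDRm, and at 42 °C 75.2% and 59.9%. With library size alone the values at 40 °C were 37.2% and 29.4%.

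**Figure D2:**
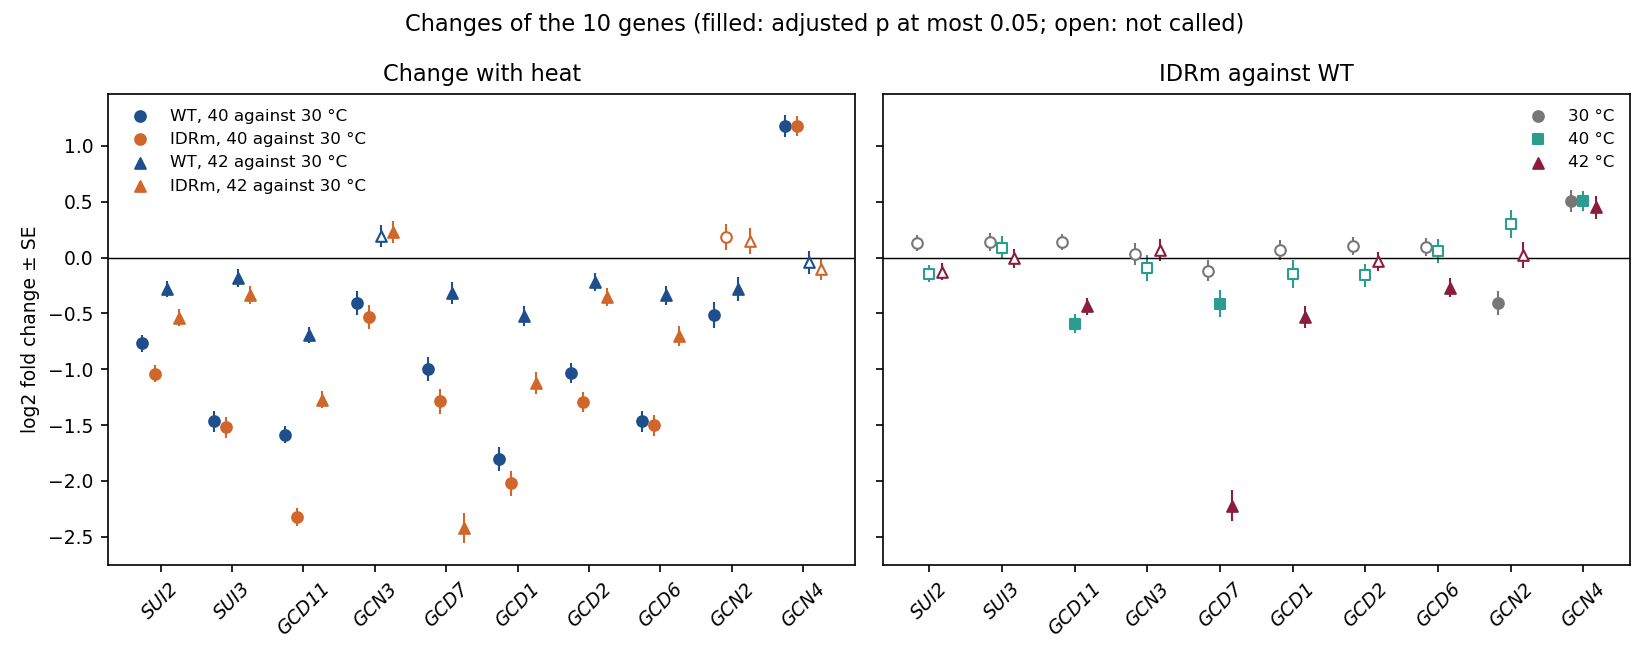
Log2 fold changes ± approximate standard error of the 10 genes, for heated against 30 °C in each strain (left) and for IDRm against WT at each temperature (right); filled points passed an adjusted p of 0.05. GCN4 lies above 0 in IDRm against WT at all 3 temperatures, between 0.45 and 0.51, and GCD7 at 42 °C lies at −2.22.

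eIF2B has 5 subunits of which GCD6 and GCD1 form the catalytic part and GCN3, GCD7 and GCD2 the regulatory part that senses phosphorylated eIF2. GCD1 (chrXV:813984-815720, plus strand) encodes the γ subunit and had 169.1 and 171.7 CPM in WT at 30 °C, 41.76 and 54.39 CPM at 40 °C and 120.3 and 115.7 CPM at 42 °C. In IDRm it had 183.4 and 173.9 CPM, 44.5 and 43.29 CPM, and 77.56 and 86.49 CPM. The strains overlapped at 40 °C, and at 42 °C both IDRm libraries lay below both WT libraries. GCD1 had the largest fall of the 10 genes in WT at 40 °C, −1.81 ± 0.11 (adjusted p = 1.26e-16), and fell by 2.02 ± 0.11 in IDRm. At 42 °C GCD1 fell by 0.53 ± 0.09 in WT and changed by −1.124 ± 0.096 in IDRm, a strain difference of −0.60 ± 0.13 (adjusted p = 0.000788), and it was lower in IDRm than in WT by −0.53 ± 0.10 (adjusted p = 5.44e-05).

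GCD6 (chrIV:884727-886865, plus strand) encodes the ε subunit, which holds the exchange activity. Its levels were 158.4 and 162.2 CPM in WT at 30 °C, 57.07 and 58.58 CPM at 40 °C and 132.2 and 119.9 CPM at 42 °C. In IDRm they were 170.1 and 171.4 CPM, 57.46 and 63.2 CPM, and 104.4 and 105.5 CPM. The strains overlapped at 40 °C and at 42 °C the IDRm libraries were lower. GCD6 fell at 40 °C by 1.47 ± 0.10 in WT, and the IDRm value of −1.501 ± 0.095 left no detectable strain difference (−0.03 ± 0.14, adjusted p = 0.921). At 42 °C GCD6 was lower in IDRm than in WT by −0.27 ± 0.09 (adjusted p = 0.014), and the changes from 30 °C differed by −0.36 ± 0.12 (adjusted p = 0.0233). The first was lost without WT replicate 1 (adjusted p = 0.179), IDRm replicate 1 (adjusted p = 0.0809) or IDRm replicate 2 (adjusted p = 0.062) at 42 °C. The second was lost without any 1 of those 3 libraries, WT replicate 1 at 30 °C or either IDRm library at 30 °C (adjusted p between 0.0532 and 0.119), and in DESeq2 (adjusted p = 0.0502).

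Among the regulatory subunits the largest strain difference was that of GCD7 at 42 °C. GCD7, the β subunit, lies at chrXII:718317-719462 on the minus strand. It had 108 and 106.5 CPM in WT at 30 °C, 47.05 and 59.62 CPM at 40 °C and 87.37 and 84.43 CPM at 42 °C. In IDRm it had 103.4 and 94.49 CPM unheated and 40.1 and 40.81 CPM at 40 °C. Only 19.01 and 17.78 CPM remained in IDRm at 42 °C, from 87 and 74 counts. In WT the 42 °C libraries lay between those at 30 and 40 °C, and in IDRm they lay below both. GCD7 fell by 2.42 ± 0.14 in IDRm at 42 °C (5.36-fold lower, adjusted p = 1.46e-17) and by 0.32 ± 0.10 in WT (adjusted p = 0.00476). The strains differed in the change from 30 to 42 °C by −2.10 ± 0.17 (adjusted p = 9.72e-12) and in the change from 40 to 42 °C by −1.81 ± 0.19 (adjusted p = 2.98e-08). In the latter GCD7 was the only one of the 10 genes that passed, with 3.85% of all genes lower.

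GCD7 was 4.67-fold lower in IDRm than in WT at 42 °C (−2.22 ± 0.14, adjusted p = 3e-15). Of 5719 genes, 7 had a lower value in that comparison. It lay between −2.331 and −2.159 and passed in all 19 other settings in which it was recomputed without a fold minimum. At 30 °C the strains differed by −0.12 ± 0.10 (adjusted p = 0.442). At 40 °C GCD7 was lower in IDRm by −0.41 ± 0.12 (adjusted p = 0.0126). That value was −0.22 without WT replicate 2 at 40 °C (adjusted p = 0.367), and the call was also lost without IDRm replicate 1 (adjusted p = 0.0799) or 2 (adjusted p = 0.0674) at 40 °C and in DESeq2 (adjusted p = 0.0984). The neighbouring genes on the same strand did not share the low value. SEC72, which starts beyond a gap of 326 bases and encodes a subunit of a protein translocation complex, rose in IDRm against WT at 42 °C by 0.28 (adjusted p = 0.0106), from 101.7 to 123 CPM. COQ11, across a gap of 338 bases and known for coenzyme Q synthesis, had a difference of 0.13 (adjusted p = 0.601).

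In GCN3 and GCD2 no strain difference was detected. GCN3 (chrXI:488738-489655, minus strand) encodes the α subunit, the 1 subunit of eIF2B that yeast can live without. It had 70.16 and 69.5 CPM in WT at 30 °C, 48.16 and 56.7 CPM at 40 °C and 80.42 and 79.3 CPM at 42 °C. In IDRm it had 73.77 and 69.15 CPM, 50.86 and 48.02 CPM, and 86.74 and 80.24 CPM. Both 42 °C groups lay above their 30 °C groups, unlike those of the other 4 eIF2B genes. GCN3 had the smallest fall of the eIF2B genes at 40 °C, −0.41 ± 0.11 in WT (adjusted p = 0.0011) and −0.53 ± 0.11 in IDRm (adjusted p = 5.2e-05). At 42 °C the change was 0.19 ± 0.10 in WT (adjusted p = 0.085), and the rise of 0.23 ± 0.10 in IDRm (adjusted p = 0.0407) was lost without any 1 of the 6 IDRm libraries (adjusted p between 0.0537 and 0.284) and in DESeq2 (adjusted p = 0.23). That rise was also lost with DESeq2's size factors (adjusted p = 0.0954), with library size alone (adjusted p = 0.0621) and with no filter (adjusted p = 0.0899). The WT change at 42 °C passed with library size alone (adjusted p = 0.0285). The strains did not differ detectably in GCN3 at any temperature, with differences between −0.09 ± 0.12 and 0.06 ± 0.10.

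GCD2 (chrVII:644860-646815, minus strand) encodes the δ subunit. It had 153.3 and 143.3 CPM in WT at 30 °C, 72.66 and 72.81 CPM at 40 °C and 128.6 and 127.1 CPM at 42 °C. In IDRm it had 164.2 and 155.4 CPM, 65.04 and 65.19 CPM, and 123.7 and 126.6 CPM. The heated IDRm libraries lay below those of WT by little, and no difference between the strains passed: it was −0.16 ± 0.10 at 40 °C (adjusted p = 0.27) and −0.03 ± 0.09 at 42 °C (adjusted p = 0.802). GCD2 fell at 40 °C by 1.03 ± 0.09 in WT and by 1.29 ± 0.09 in IDRm. Its fall at 42 °C in WT, −0.22 ± 0.08 (adjusted p = 0.0207), was lost without WT replicate 1 at 30 °C (adjusted p = 0.162) and without WT replicate 1 (adjusted p = 0.0581) or 2 (adjusted p = 0.0563) at 42 °C. That fall was also lost in DESeq2 (adjusted p = 0.0939), with library size alone (adjusted p = 0.0987) and in a fit of those groups alone (adjusted p = 0.139). It passed in 13 of 19 other settings without a fold minimum. For the regulatory trio the start codons, in capitals, stood in the following contexts, shown because the strains differed at 42 °C in GCD7 and not detectably in the other 2. No test was made of them.
GCD7, chrXII:719454-719474, minus strand: gcccaacataagATGtcctct
GCN3, chrXI:489647-489667, minus strand: tcgagaggaaggATGtcggag
GCD2, chrVII:646807-646827, minus strand: aatcaaattgctATGagcgaa

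The 5 eIF2B genes were read at near-equal density in unheated WT cells. The complex is known to hold equal numbers of each. Densities in WT at 30 °C were 98.11 ± 1.05 CPM per kb for GCD1, 93.59 ± 0.879 for GCD7, 76.06 ± 0.507 for GCN3, 75.83 ± 3.62 for GCD2 and 74.96 ± 1.26 for GCD6 (mean ± SD, n = 2). The last 3 overlapped. The highest density was 1.31 and 1.35 times the lowest in the 2 libraries. In IDRm at 42 °C it was 5.7 and 5.63 times the lowest, which was then GCD7 at 16.05 ± 0.759 CPM per kb, while GCN3 had 90.95 ± 5. Of the summed density GCD7 held 20.2% in IDRm at 30 °C, 20.1% at 40 °C and 6.01% at 42 °C, with at most 0.7 points between the libraries of a group. In WT its share was 22.4%, 23.7% and 21.2%. GCN3 rose as a share from 18.2% to 29.2% at 40 °C in WT and from 18.2% to 34% at 42 °C in IDRm. The mean density of the 5 subunits at 42 °C was 84.6% of its 30 °C value in WT and 62.4% in IDRm. Footprint shares are shares of reads and do not give the amounts of protein.

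**Figure D3:**
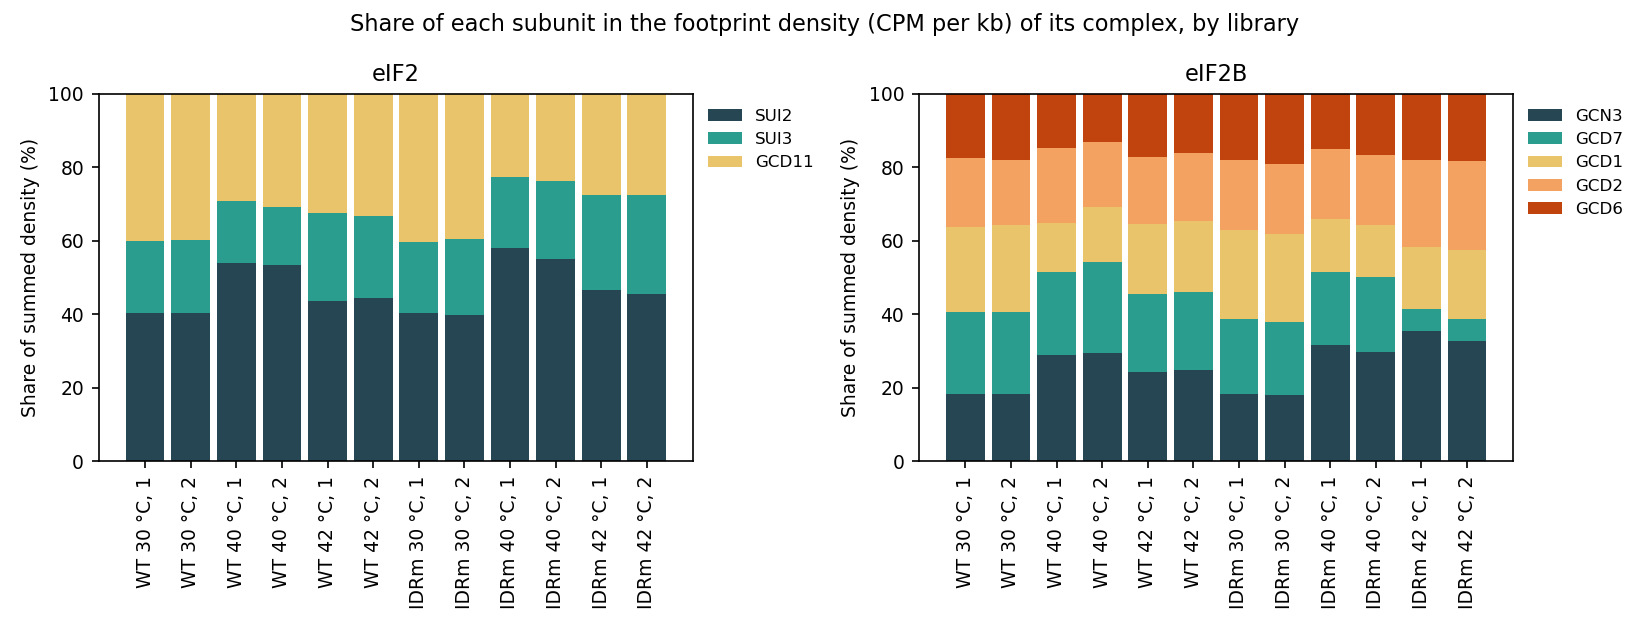
Share of each subunit in the summed footprint density (CPM per kb) of eIF2 (3 subunits) and of eIF2B (5 subunits), in percent, 1 bar per library. SUI2 takes more and GCD11 less of eIF2 at 40 °C, and GCD7 shrinks to 5.82% and 6.19% of eIF2B in the IDRm libraries at 42 °C.

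GCN2, at chrIV:1025070-1030049 on the minus strand, was the least densely read of the 10 genes in every group, at 8.073 to 11.54 CPM per kb. It had 60.06 and 54.89 CPM in WT at 30 °C, 37.31 and 43.1 CPM at 40 °C and 49.38 and 45.71 CPM at 42 °C. In IDRm it had 43.62 and 43.97 CPM, 51.35 and 48.27 CPM, and 48.94 and 48.05 CPM. In WT the 30 °C libraries were the highest, and in IDRm they were the lowest. GCN2 fell in WT at 40 °C by 0.52 ± 0.12 (adjusted p = 0.000153), a value that was −0.44 without replicate 1 at 30 °C and −0.58 without replicate 2. The change in IDRm, 0.19 ± 0.12, did not pass (adjusted p = 0.142), but it was 0.24 and passed in a fit of those groups alone (adjusted p = 0.0484). The test of the strain difference in that change gave 0.70 ± 0.16 (adjusted p = 0.00275), with 3.81% of all genes higher, and it passed in all 19 other settings without a fold minimum.

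The remaining GCN2 calls were lost in several other settings. GCN2 was lower in IDRm than in WT at 30 °C by −0.40 ± 0.11 (adjusted p = 0.00894). This was lost without WT replicate 1 (adjusted p = 0.157) or IDRm replicate 1 (adjusted p = 0.0805) or 2 (adjusted p = 0.0542) at 30 °C, and in DESeq2 (adjusted p = 0.103). Its fall in WT at 42 °C, −0.28 ± 0.11 (adjusted p = 0.0241), was lost without WT replicate 1 at 30 °C (adjusted p = 0.219) or WT replicate 2 at 42 °C (adjusted p = 0.103). That fall was also lost in DESeq2 (adjusted p = 0.128), with library size alone (adjusted p = 0.0988) and in a fit of those groups alone (adjusted p = 0.115). The strain difference from 30 to 42 °C, 0.43 ± 0.16 (adjusted p = 0.0417), passed in 7 of 19 other settings. It was lost without WT replicate 1 at 30 °C, without WT replicate 2 at 42 °C and without any 1 of the 6 IDRm libraries (adjusted p between 0.0524 and 0.18), and in DESeq2 (adjusted p = 0.269). At 40 °C GCN2 was higher in IDRm by 0.30 ± 0.12, which did not pass (adjusted p = 0.068). This difference passed with DESeq2's size factors (adjusted p = 0.0344) and in a fit of those groups alone (adjusted p = 0.0438).

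GCN4 rose at 40 °C, where eIF2 and eIF2B fell. It had 61.4 and 70.85 CPM in WT at 30 °C (505 and 262 counts), 152.6 and 143.5 CPM at 40 °C and 65.93 and 59.94 CPM at 42 °C. The IDRm libraries had 87.42 and 97.85 CPM unheated, 213 and 207.5 CPM at 40 °C, and 84.56 and 88.17 CPM after the hotter shift. At each temperature both IDRm libraries lay above both WT libraries, and in each strain the 42 °C libraries overlapped those at 30 °C. GCN4 rose 2.27-fold at 40 °C in both strains, by 1.18 ± 0.10 in WT (adjusted p = 9.72e-13) and by 1.18 ± 0.09 in IDRm (adjusted p = 1.44e-13). The WT value was 1.06 without replicate 1 at 30 °C and 1.26 without replicate 2, and 18% of all genes had a higher value than GCN4 in that comparison. At 42 °C the changes from 30 °C were −0.04 ± 0.10 in WT (adjusted p = 0.726) and −0.10 ± 0.10 in IDRm (adjusted p = 0.337). From 40 to 42 °C GCN4 fell by 1.22 ± 0.10 in WT (adjusted p = 1.03e-12) and by 1.28 ± 0.09 in IDRm (adjusted p = 1.65e-13).

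GCN4 also differed between the strains at each temperature. In IDRm it was higher by 0.51 ± 0.10 at 30 °C (1.42-fold, adjusted p = 0.000401), by 0.51 ± 0.09 at 40 °C (adjusted p = 4.16e-05) and by 0.45 ± 0.10 at 42 °C (adjusted p = 0.000604). Background shares of genes higher in IDRm were 9.58%, 11.4% and 20.4%. All 3 differences passed in each of the 19 other settings without a fold minimum, with 0.39 to 0.60 at 30 °C, 0.46 to 0.55 at 40 °C and 0.34 to 0.53 at 42 °C. No strain difference in the response to heat was detected: it was 0.00 ± 0.13 from 30 to 40 °C, −0.06 ± 0.14 from 30 to 42 °C and −0.06 ± 0.14 from 40 to 42 °C. By density GCN4 was the 6th of the 10 genes in WT at 30 °C, at 78.16 ± 7.9 CPM per kb, overlapping GCN3, GCD2 and GCD6. At 40 °C it was the 2nd in WT, at 175 ± 7.56, and the 1st in IDRm, at 248.5 ± 4.56 CPM per kb, above SUI2 at 213.7 ± 6.51.

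Over the 6 group means of log2 CPM, GCN4 had Pearson correlations of −0.887 to −0.372 with the other 9 genes, while those among SUI2, SUI3, GCD11, GCD1, GCD2 and GCD6 were 0.897 to 0.992. GCD7 had 0.013 with GCN3 and 0.649 with GCD11. These are descriptions over 6 points that share their libraries. Among the 3976 genes that averaged 20 CPM or more, those most like GCN4 were TAG1 (0.9944), MAG1 (0.9912), which encodes a DNA glycosylase, and ECM33 (0.9866), a cell wall protein. The genes most like GCN2 were CTF18 (0.9179), of a DNA replication clamp loader, MLO50 (0.8796) and AIM21 (0.8039). For GCD7, looked up after its values were seen, they were TAF12 (0.9987), a subunit of TFIID and SAGA, RNA14 (0.9896), of mRNA 3′ end cleavage, and APL5 (0.9896), of an adaptor complex.

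IDRm and WT were compared gene by gene at each temperature. At 30 °C, 1 of the 10 genes was higher in IDRm (GCN4) and 1 lower (GCN2), with 16.3% of all genes changed, 9.58% higher and 6.75% lower. At 40 °C GCN4 was higher and GCD11 and GCD7 were lower, with 25.9% of all genes changed, 11.4% higher and 14.5% lower. At 42 °C GCN4 was higher and GCD11, GCD7, GCD1 and GCD6 were lower, with 41.1% of all genes changed, 20.4% higher and 20.7% lower. With library size alone the median gene was at −0.11 at 42 °C, all genes split there into 813 higher and 1587 lower in place of 1165 and 1183, and SUI2 was lower too (−0.23, adjusted p = 0.00973). The strain difference in the change passed in 2 of the 10 genes from 30 to 40 °C (GCN2 upwards and GCD11 downwards), with 12.3% of all genes, 3.81% upwards and 8.52% downwards. It passed in 5 from 30 to 42 °C, with 27.4% of all genes, 11.4% upwards and 16.1% downwards, and in 1 from 40 to 42 °C, with 10.1%, 6.24% upwards and 3.85% downwards. From 30 to 42 °C, 4 were lower and 1 higher, and 0 were higher and 5 lower under DESeq2's size factors or library size alone. Of all genes, 650 were higher and 919 lower there, and 455 and 1098 with library size alone. From 40 to 42 °C, 357 of all genes were higher and 220 lower, but 211 and 296 with library size alone and 207 and 282 with DESeq2's size factors.

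Genes that Gcn4 is known to activate were counted as a list of 42, mostly enzymes of amino acid biosynthesis, all of them tested. This list, the list of factors below and the 10 genes were chosen with earlier results of these data known. The Gcn4 binding motif TGACTC, searched on both strands in the 500 bases before the start codon, occurred in 34 of the 42 (81%) and in 759 of 6000 protein-coding genes (12.7%). It occurred in 0 of the 10 genes described here. HIS4, a histidine biosynthesis gene long used as a Gcn4 reporter, had 3 matches on chromosome III, minus strand. They are printed with the motif in capitals, and a match is a description and not a shown binding site.
HIS4, 255 bases before the start codon, chrIII:68575-68596: agtcgaacTGACTCtaatagtg
HIS4, 243 bases before it, chrIII:68563-68584: tctaatagTGACTCcggtaaat
HIS4, 199 bases before it, chrIII:68519-68540: atgcacagTGACTCacgttttt

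Most of these targets did not rise with GCN4 at 40 °C. In WT at 40 °C, 5 of the 42 rose and 28 fell, with a median of −0.60, where 36.1% of all genes rose and 39.5% fell with a median of −0.02. At 42 °C 3 rose and 30 fell, with a median of −0.44, beside 30% and 33.6% of all genes and a median of −0.03. In IDRm 9 rose and 25 fell at 40 °C (median −0.41), beside 37.4% and 39.9% of all genes, and 14 rose and 19 fell at 42 °C (median −0.06), beside 36.8% and 36.7%. From 40 to 42 °C, where GCN4 fell, 14 targets were higher and 16 lower in WT, beside 29.8% and 29.4% of all genes, and 22 and 6 in IDRm, beside 27.3% and 27%. With library size alone these splits were 23 and 9, and 29 and 3, beside 2620 and 921, and 2228 and 974, of all genes. CPA1, of arginine synthesis, had the largest fall of the list in WT, −2.20 ± 0.15 at 40 °C and −2.74 ± 0.15 at 42 °C. ILV2, acetolactate synthase of branched amino acids, rose by 0.79 ± 0.07 at 40 °C. ATG41 (YPL250C), an autophagy gene, rose from 48.98 ± 39.3 to 4709 ± 24.6 CPM (6.76 ± 0.47) at 40 °C and to 1732 ± 174 CPM at 42 °C (5.32 ± 0.47). The 2 WT libraries at 30 °C were far apart in it. UGA3, a regulator of GABA use, rose by 0.70 ± 0.14 at 42 °C. The list values are log2 fold changes of edgeR's test with Benjamini-Hochberg adjusted p between 4.67e-12 and 9.09e-05.

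Between the strains, more targets were higher in IDRm than lower, most of all at 42 °C. At 30 °C 13 were higher and 5 lower (median 0.08, against 0 for all genes), at 40 °C 20 and 4 (median 0.18, against −0.01), and at 42 °C 28 and 2 (median 0.45, against 0). Of all genes 9.58% were higher and 6.75% lower at 30 °C. At 40 °C these shares were 11.4% and 14.5%, and at 42 °C they were 20.4% and 20.7%. Of the 42, 32 were higher in IDRm at 1 temperature or more, 9 at all 3 and 8 at 42 °C alone. The matching shares of all genes were not computed, so these overlap counts have no background beside them. The count at 30 °C was 9 in place of 18 without IDRm replicate 1 at 30 °C. The change from 30 to 42 °C differed between the strains in 27 targets, 24 upwards and 3 downwards, beside 11.4% and 16.1% of all genes. From 30 to 40 °C it differed in 12, 9 upwards and 3 downwards, beside 3.81% and 8.52%. From 40 to 42 °C it differed in 13, all upwards, beside 6.24% of all genes upwards and 3.85% downwards, and this count was 8 without WT replicate 2 at 40 °C, 6 without WT replicate 1 at 42 °C, 7 without IDRm replicate 1 at 40 °C, 6 without IDRm replicate 2 at 42 °C and 4 in DESeq2. The motif was not tested as a cause of these differences. Target counts without a library or in DESeq2 have no share of all genes beside them.

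**Figure D4:**
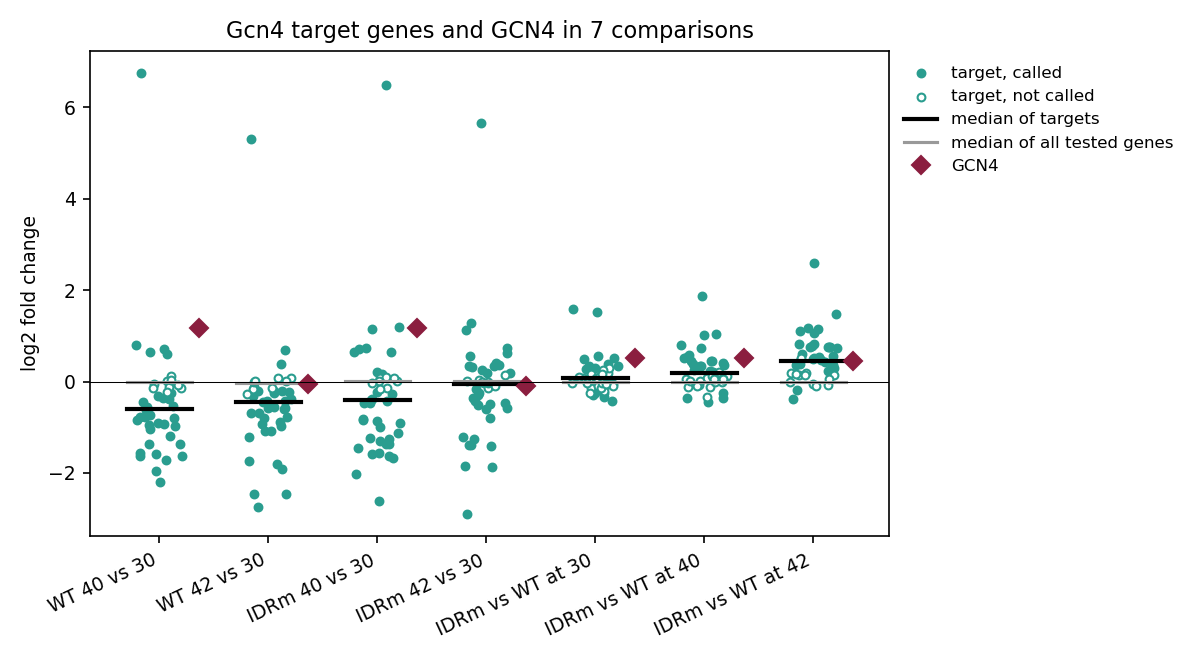
Log2 fold changes of the 42 Gcn4 target genes (points) with their median (bar) and GCN4 itself (diamond) in 7 comparisons. GCN4 lies at 1.18 in both 40 °C comparisons while the target medians are −0.60 and −0.41, and in IDRm against WT the medians are 0.08, 0.18 and 0.45 at 30, 40 and 42 °C.

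SNZ1, of vitamin B6 synthesis, had the largest difference of the list at 40 °C. It had 70.52 ± 6.2 CPM in WT at 30 °C, 21.15 ± 1.16 at 40 °C and 12.67 ± 0.559 at 42 °C, and in IDRm 201.4 ± 12.6, 77.58 ± 2.18 and 75.8 ± 4.92 CPM. SNZ1 was higher in IDRm by 1.87 ± 0.13 at 40 °C (3.65-fold, adjusted p = 4.18e-13) and by 2.59 ± 0.14 at 42 °C (adjusted p = 1.47e-16), and it fell with heat in both strains. TRP5, tryptophan synthase, was lower in IDRm at 40 °C by −0.46 ± 0.07 (adjusted p = 8.34e-06). LYS20, homocitrate synthase of lysine synthesis, was lower by −0.36 ± 0.11 (adjusted p = 0.0103), which was lost without WT replicate 1 (adjusted p = 0.0886) or IDRm replicate 2 (adjusted p = 0.109) at 40 °C and in DESeq2 (adjusted p = 0.0762).

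HIS4 was among the targets that were higher in IDRm at 42 °C. It had 905.6 and 815 CPM in WT at 30 °C, 713.3 and 741.7 CPM at 40 °C and 400.8 and 416.1 CPM at 42 °C. In IDRm it had 691.4 and 714.3 CPM, 786.1 and 847.2 CPM, and 698.5 and 691 CPM. The WT libraries were the higher ones at 30 °C and the lower ones at 40 and 42 °C. HIS4 fell in WT at 42 °C by 1.08 ± 0.07 (adjusted p = 3.86e-15), and in IDRm its change was −0.02 ± 0.07 (adjusted p = 0.828). The strains differed in that change by 1.06 ± 0.10 (adjusted p = 2.41e-10), and at 42 °C HIS4 was higher in IDRm by 0.77 ± 0.07 (adjusted p = 6.54e-11).

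A second list held 17 factors around this circuit, among them activators of Gcn2, phosphatases, the Gcn4 degradation machinery and partners of eIF2. In WT at 40 °C 4 rose and 10 fell (median −0.31), beside 36.1% and 39.5% of all genes and their median of −0.02. At 42 °C 1 rose and 10 fell (median −0.29), beside 30% and 33.6% of all genes and a median of −0.03. In IDRm 2 rose and 11 fell at 40 °C (median −0.56, against 0.01), beside 37.4% and 39.9%, and 1 rose and 12 fell at 42 °C (median −0.46, against 0.02), beside 36.8% and 36.7%. TIF5, encoding eIF5, the GTPase activator of eIF2, went from 409.1 and 381.8 CPM to 57.63 and 68.83 CPM at 40 °C in WT and from 499.1 and 460.2 to 71.4 and 67.18 CPM in IDRm. This fall of 2.64 ± 0.10 in WT (adjusted p = 2.85e-22) was the largest of the list, ahead of YIH1, an inhibitor of Gcn2 activation, at −1.74 ± 0.17 (adjusted p = 8.22e-12). MBF1, a coactivator that bridges Gcn4 and the TATA-binding protein, rose from 178 ± 14.8 to 3132 ± 2.96 CPM in WT (17.7-fold, adjusted p = 7.12e-29) and from 123.4 ± 6.86 to 3380 ± 182 CPM in IDRm. At 42 °C it stood at 1731 ± 3.37 and 2190 ± 32.5 CPM. PCL5, a cyclin that promotes the breakdown of Gcn4, rose by 0.64 ± 0.14 at 40 °C in WT (adjusted p = 0.000179). CDC34 and CDC4, of the ubiquitin ligase that acts on Gcn4, fell in WT at 42 °C by 1.07 ± 0.10 and 1.06 ± 0.13.

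GCN1 and GCN20, whose products bind ribosomes and activate Gcn2, were followed for their role upstream of the kinase. GCN1 had 772 to 867.6 CPM in the 6 WT libraries, with a change of 0.00 ± 0.07 at 40 °C that was −0.24 with library size alone (adjusted p = 0.000832). In IDRm at 42 °C GCN1 had 711 and 701 CPM, a fall of 0.25 ± 0.07 from 30 °C (adjusted p = 0.00116). GCN20 fell at 40 °C from 196.4 and 202.5 to 156.7 and 163.2 CPM in WT and from 219.8 and 204.8 to 116.9 and 121.7 CPM in IDRm. The fall of GCN20 was larger in IDRm by −0.52 ± 0.12 (adjusted p = 0.00203), and at 40 °C it was lower in IDRm than in WT by −0.43 ± 0.09 (adjusted p = 0.000303). Between the strains, 4 of the 17 factors were higher in IDRm and 2 lower at 30 °C, beside 9.58% and 6.75% of all genes. The count of 6 became 1 without IDRm replicate 1 at 30 °C, 3 without IDRm replicate 2, 4 without WT replicate 1 or 2 and 3 in DESeq2. At 40 °C 1 was higher and 3 were lower, beside 11.4% and 14.5%, and the count of 4 became 1 without WT replicate 1 or either IDRm library at 40 °C, 2 without WT replicate 2 and 1 in DESeq2. At 42 °C 3 were higher and 5 lower, beside 20.4% and 20.7%, and the count of 8 became 5 without WT replicate 1 at 42 °C. The splits with library size alone were 0 and 3 at 40 °C, where all genes split into 572 higher and 870 lower. At 42 °C they were 2 and 7, where all genes split into 813 and 1587. Factor counts without a library or in DESeq2 have no share of all genes beside them. At 40 °C SIT4, a phosphatase, was lower by −0.42 ± 0.13 (adjusted p = 0.0164) and PCL5 higher by 0.38 ± 0.13 (adjusted p = 0.0361). Both were lost in DESeq2 (adjusted p = 0.122 and 0.163) and without single libraries at 40 °C, SIT4 without WT replicate 1 (adjusted p = 0.13) or IDRm replicate 1 (adjusted p = 0.0919) or 2 (adjusted p = 0.0782), and PCL5 without any 1 of the 4 (adjusted p between 0.0765 and 0.213).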

How the data were processed

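The deposited table holds whole-number counts of ribosome footprints per gene, 1 column per library, as the authors counted them. Build R64 and the programs STAR 2.5.2b, Bowtie2 2.2.6, cutadapt 1.17 and bcl2fastq 2.17.1.14 are listed, with no roles, in the submitters' processing notes. Neither the counting rule nor the strand setting is stated there.

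Tests used edgeR 4.0.16 (R 4.3.3): filterByExpr (minimum count 10, total 15), trimmed mean of M-values scaling, and robust quasi-likelihood F tests with 1 mean per group. A single fit of 12 libraries gave 12 comparisons (6 residual degrees of freedom, median prior 25.49). Benjamini-Hochberg adjustment ran over all 5719 genes. Standard errors are Wald errors times the square root of the moderated dispersion and approximate. Log2 levels used a prior count of 2. The procedure was tested on simulated data. Alternatives included DESeq2 1.42.0, other scalings, no filter, replicate blocks, a fit of the compared groups alone, a 2-fold minimum and each library left out.

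Per the labels' protocols, pre-cultures were grown in duplicate and main cultures were divided among the temperatures. All libraries entered as independent, and p-values reflect only the spread between them. Names and coordinates came from the R64 annotation, which held 6014 of 6697 identifiers. The members and lists were chosen with earlier results of these data known. List genes qualified for naming with a mean level of at least 20 CPM over the 12 libraries. Of these, the 2 highest and 2 lowest called changes were named in WT at 40 and 42 °C and in IDRm against WT at 40 °C, with GCN1, GCN20, TIF5 and HIS4 always. A further gene that this rule names is not reported here.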

Additional observations from a re-analysis of the deposited data

Results flagged for a closer look

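In 5 of the 10 genes the response to heat differed between the strains by a test of the difference itself. Of all genes, 12.3% passed that test from 30 to 40 °C, 27.4% from 30 to 42 °C and 10.1% from 40 to 42 °C. A share of all genes over these tests together was not computed. Differences are always given as IDRm minus WT on the log2 scale (edgeR quasi-likelihood test, Benjamini-Hochberg adjusted over 5719 genes). GCD7 differed by −2.103 ± 0.168 from 30 to 42 °C (adjusted p = 9.72e-12) and by −1.809 ± 0.186 from 40 to 42 °C (adjusted p = 2.98e-08). GCD11 differed by −0.735 ± 0.111 from 30 to 40 °C (adjusted p = 1.3e-05) and by −0.577 ± 0.105 from 30 to 42 °C (adjusted p = 7.57e-05). GCD1 differed by −0.597 ± 0.132 from 30 to 42 °C (adjusted p = 0.000788) and GCD6 by −0.362 ± 0.12 (adjusted p = 0.0233). GCN2 differed in the other direction, by 0.704 ± 0.163 from 30 to 40 °C (adjusted p = 0.00275) and by 0.426 ± 0.157 from 30 to 42 °C (adjusted p = 0.0417). The GCD6 value and the second GCN2 value were lost without single libraries, as given with those genes.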

How the results depend on the processing

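Each value of the 10 genes was recomputed in 20 other settings: 2286 values kept their side of the threshold, 104 no longer passed and 10 newly passed. A sign changed in 34 cases, each with the value called neither before nor after, at a size of at most 0.175. With a 2-fold minimum the genes called fell to 6, 0, 4, 3 and 4 for WT at 40 against 30 °C, WT at 42 against 30 °C, WT at 42 against 40 °C, IDRm at 42 against 30 °C and IDRm at 42 against 40 °C. They fell to 0, 0 and 1 for IDRm against WT at 30, 40 and 42 °C and to 0 and 1 for the strain difference from 30 to 40 and to 42 °C. The Gcn4 targets fell to 12, 10, 4, 16, 11 and 4 for WT and then IDRm at 40 against 30, 42 against 30 and 42 against 40 °C, to 2, 3 and 6 between the strains, and to 0, 7 and 0 for the strain differences from 30 to 40, 30 to 42 and 40 to 42 °C. The 17 factors, recounted after seeing the data, fell to 4, 3, 4, 5, 4 and 3 in the same order and to 0 in the other 6 comparisons. Shares of all genes called were computed for the main fit and the other scalings only. Counts with a 2-fold minimum, with a library left out, in DESeq2 or in any further setting therefore have no background beside them. This holds here and in the sections above and below. For WT at 42 against 30 °C, 5 of the 8 genes were called in a fit of those groups alone and 5 in DESeq2. DESeq2 called 1 gene between the strains at 30 °C and 3 in the strain difference from 30 to 42 °C, and 4 targets in that from 40 to 42 °C. Of the factors it called 3 between the strains at 30 °C and 1 at 40 °C, and a fit of those groups alone called 3 at 30 °C. For the strain difference from 40 to 42 °C, 1 factor was called with DESeq2, its size factors, library size alone or no filter.

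With 1 library left out, 5 to 8 genes were called for WT at 42 against 30 °C (5 without WT replicate 1 at 30 °C or replicate 2 at 42 °C), 1 to 2 between the strains at 30 °C (1 without WT replicate 1 or either IDRm library), 3 to 5 for the strain difference from 30 to 42 °C (3 without replicate 1 of WT or IDRm at 30 °C or either IDRm library at 42 °C), and 1 to 2 for that from 40 to 42 °C (2 without WT replicate 2 at 40 °C, where GCD1 joins at −0.60, adjusted p = 0.0383). Targets called ranged from 9 to 18 between the strains at 30 °C and from 6 to 17 for the strain difference from 40 to 42 °C. Factors called ranged from 1 to 6, 1 to 4 and 5 to 8 between the strains at 30, 40 and 42 °C and from 1 to 2 for that strain difference.

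Among named list genes, in settings added after seeing the data, 6 values turned that were called before or after, and 43 that were called in neither. With library size alone GCN1 was at −0.241 for WT at 40 against 30 °C and at 0.229 for 42 against 40 °C, and HIS4 at −0.011 for IDRm at 40 against 30 °C. The median gene was then at −0.26 and 0.3 in those WT comparisons and at −0.22 in that of IDRm. ATG41 was at −0.627 between the strains at 30 °C, 0.555 for the strain difference from 30 to 40 °C and 1.15 for that from 30 to 42 °C without WT replicate 1 at 30 °C, and at 1.226, −1.291 and −0.705 without replicate 2. The cause of these shifts was not tested.

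Replicate numbers were not shown to mark paired cultures: deviations from the group mean correlated between same-numbered groups at −0.088 to 0.154. With a replicate block over both strains 7 of the 10 genes were called for WT at 42 against 30 °C, where SUI3 was lost (adjusted p = 0.0509), and with a block within each strain 2 were called between the strains at 40 °C, where GCD7 was at −0.34 (adjusted p = 0.0823), LYS20 at −0.285 (adjusted p = 0.0761) and PCL5 at 0.39 (adjusted p = 0.0963). Depth limits GCN2 and GCD7 most, with 74 and 87 counts of GCD7 in IDRm at 42 °C.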

Other observations

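The TGACTC motif also lies in the 500 bases before the start codon of 724 genes outside the lists, of which 687 were tested. In IDRm against WT at 42 °C, 20.7% of them were higher and 19.4% lower, beside 20% and 20.9% of the 4963 genes without the motif or a place in the lists, and the medians were 0.02 and 0. At 40 °C in WT 34.2% rose and 42.8% fell, beside 36.6% and 38.6%. Of the 42 listed targets 28 were higher in IDRm at 42 °C. The list was chosen as known targets and not by the motif, with earlier results of these data known.

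In IDRm against WT at 42 °C, 6 genes that averaged 20 CPM or more had a lower value than GCD7. They were URA6, a pyrimidine kinase (−3.16), OST1, of N-glycosylation (−2.55), PDE2, a cAMP phosphodiesterase (−2.53), PHO12, an acid phosphatase (−2.37), VIP1, an inositol phosphate kinase (−2.35), and MEP2, an ammonium permease (−2.25). These were named after their values were seen.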
